A study of Homo sapiens with 4 samples.

Results

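The E2F and DP transcription factors were followed in HEK-293 cells, an established line of human embryonic kidney origin, after siRNA knockdown of ZSCAN5 genes. The members were taken by name and not by level: TFDP1 and TFDP2, which encode the DP proteins, and E2F1 to E2F8. These are 10 of the 24934 gene rows in the deposited table. The family was picked with TFDP1 in view, because TFDP1 was known to be lower in the si1 library and in neither of the other siRNA libraries. The si1 values of TFDP1 are therefore given as a description.

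The study asked which genes change when ZSCAN5A or ZSCAN5B, which encode zinc finger proteins with a SCAN domain, is knocked down. HEK-293 cells received 10 nM of 1 siRNA for 48 h: si4 or si5 against ZSCAN5A, si1 against ZSCAN5B, or a scrambled control siRNA. One mRNA library was sequenced per treatment, 4 in all, from a single cell line with no other alteration named. The values are FPKM, a count of sequenced fragments divided by transcript length and library total, so levels of different genes can be compared per length. No treatment had a replicate library, so no value has a replicate error and the comparisons given here have no p-value. The comparisons with the control all used the same control library. Where 4 values of a gene stand without a label they are in the order si1, si4, si5 and control, and 3 log2 ratios to the control are in the order si1, si4 and si5.

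E2F proteins bind DNA at genes of the cell cycle, and most of them do so as a pair with a DP protein. E2F1, E2F2 and E2F3 are known as activators of S phase genes, E2F4 and E2F5 act mainly as repressors together with the pocket proteins RB1, RBL1 and RBL2, and E2F6 represses with Polycomb-type partners and without pocket proteins. E2F7 and E2F8 are atypical repressors that bind DNA without a DP partner and act on the genes that the activators switch on. HEK-293 cells carry adenoviral early genes whose products bind the pocket proteins and release E2F from them.

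The 3 siRNAs are shown first, because short matches to their guide strands occurred in several members. Each guide is written 5′ to 3′, with the seed, bases 2 to 8, in capitals.
si4 guide: tTACACGTaaacctcttctcg
si5 guide: tCTCTTGTggatgactagctt
si1 guide: tAAATGATttattgcacacgt
The seed is the stretch by which a guide strand can pair with a transcript other than its target. The target of si1 matched ZSCAN5B with 0 mismatches, and its closest match in TFDP1 had 8 mismatches, a number that 65.1% of the genes with at least 1 FPKM reached or bettered.

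Seed matches in 3′ UTRs were read from the GRCh37 genome on the transcript strand, 5′ to 3′, with the 7 bases that pair with the seed in capitals. TFDP1 had 2 matches for si1, both in exon 12 of 12, at chr13:114295404-114295410 and chr13:114295527-114295533.
TFDP1, first si1 match: acatacttataagtctATCATTTaaaga
TFDP1, second si1 match: aactcaaaatttgtcaATCATTTttaat
TFDP2, on the minus strand, had 3 matches for si5 in exon 13 of 13, of which those at chr3:141671346-141671352 and chr3:141663807-141663813 are shown.
TFDP2, si5 match near the stop codon: agACAAGAGaaagc
TFDP2, last si5 match: gctttaagcaatttaaACAAGAGagata
E2F3 had 1 match for si4 in exon 7 of 7, at chr6:20493493-20493499, and 1 for si5.
E2F3, si4 match: ttttcatttttgttgtACGTGTAgatct
These are the members with more than 1 match for a guide and the only member with a match for si4. Of the others, E2F2 had 1 match for si1, E2F6 had 1 for si5 and 1 for si1, E2F7 had 1 for si5, and none was found in E2F1, E2F4, E2F5 or E2F8.

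Such matches were common. Of 11985 expressed genes with a 3′ UTR, 23.4% held at least 1 match for si1 and 7.12% held 2 or more, against 12.0% and 1.69% for si5 and 3.36% and 0.142% for si4. With the matching siRNA, the median log2 ratio to the control went from -0.01 without a match to -0.27 with 1 match and -0.50 with 2 or more for si4. For si5 the medians were -0.01, -0.10 and -0.14, and for si1 they were 0.01, -0.05 and -0.07. Among the 853 genes with 2 or more si1 matches, TMEM64 had the lowest ratio with si1 and TFDP1 ranked 2 from the lowest. Since TFDP1 was chosen on its si1 value, nothing is read from that rank. Of the 853, 53 (6.21%) were more than 1.5-fold lower with si1, beside 4.19% of genes with 1 match and 2.29% with none. This trend was not particular to the si1 seed. With genes sorted by si5 matches instead, the shares lower with si1 were 6.93%, 4.30% and 2.63% in the same order. Sorted by si4 matches they were 5.88%, 2.59% and 2.88%. With genes sorted by si1 matches, the shares lower were 5.51%, 5.11% and 5.03% with si4 and 2.34%, 2.40% and 2.47% with si5. The part of seed matches in any value given here was not tested.

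The targeted genes served as the check of the labels. ZSCAN5A stood at 0.730 FPKM with si4 and 0.713 FPKM with si5, against 2.42 FPKM in the control and 2.53 FPKM with si1. ZSCAN5B stood at 0.0948 FPKM with si1 and 0.0903 FPKM in the control, 0.0331 FPKM with si4 and 0.0663 FPKM with si5. ZSCAN5B was thus not lower in its own knockdown library, at a level too low to read a change from. The study itself reported less ZSCAN5B transcript by qRT-PCR, and less protein by Western blot, after ZSCAN5B knockdown. Those measurements were not analysed here, and si1 below means the library labelled ZSCAN5B knockdown. The estimated depth relative to the control was 1.09 for si4, 1.54 for si5 and 1.02 for si1. The FPKM sums were 537181 with si1, 546239 with si4, 539502 with si5 and 488036 in the control, so the control stood apart as the lowest. All 7 genes of a list of HEK-293 markers were detected, while 5 of 6 markers of lymphocytes, hepatocytes, fibroblasts and erythroid cells were under 0.1 FPKM in every library, with COL1A2 and HBB at 0. The exception was COL1A1, a fibroblast collagen, at 1.56 FPKM with si1, 1.10 with si4, 1.38 with si5 and 1.85 in the control, past the limit with si4, and its part in the results was not tested. PAX2, a kidney lineage factor among the HEK-293 markers, was between 0.584 and 0.615 FPKM in the siRNA libraries and 1.16 FPKM in the control.

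In the control, TFDP1 was the most abundant member at 63.8 FPKM, followed by E2F1 at 31.3, E2F4 at 29.2, E2F3 at 24.9, E2F7 at 16.1, E2F6 at 13.8, E2F5 at 12.7, TFDP2 at 6.61, E2F2 at 5.33 and E2F8 at 4.47 FPKM. The only spread at hand is that between si4 and si5, 2 different siRNAs against ZSCAN5A, which for E2F3 reached 1.36-fold, the largest among the members. The steps from TFDP1 to E2F1, from E2F3 to E2F7 and from E2F5 to TFDP2 were larger than that, whereas the other neighbours in the order differed by less. That spread compares a gene with itself, so it does not measure the error of a comparison between genes. TFDP1 was first in the si4, si5 and control libraries. With si1 it took place 4, and E2F4, E2F3, E2F1 and TFDP1 lay between 30.0 and 25.8 FPKM, each within 1.36-fold of the next. TFDP3, a further DP gene on the X chromosome, was listed at 0 in all 4 libraries.

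**Figure D1:**
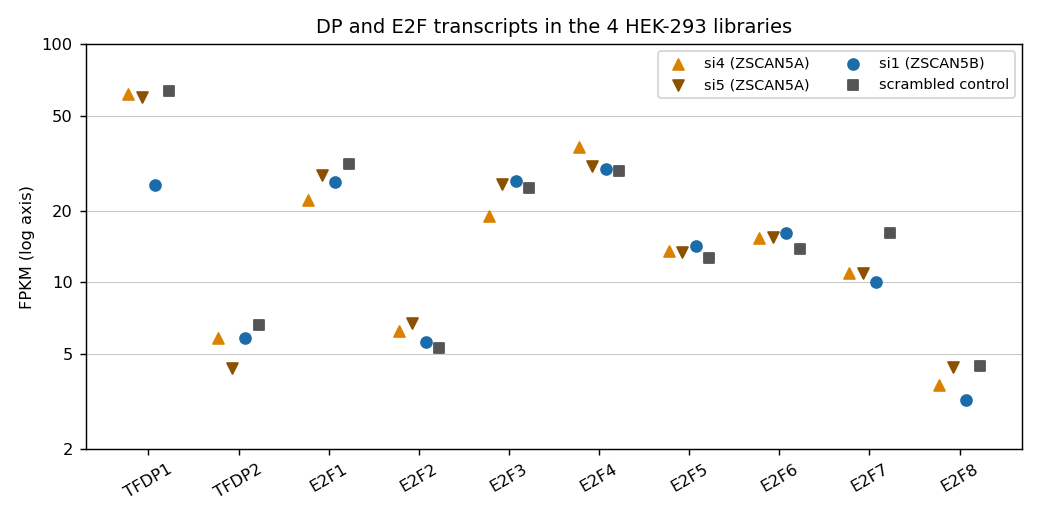
FPKM of the 10 DP and E2F genes on a log axis, 1 point per library and no error bars, since each treatment had 1 library. TFDP1 with si1 lies at 25.8 FPKM, below the other 3 libraries at 59.8 to 63.8 FPKM, and E2F7 lies between 10.0 and 11.0 FPKM in the siRNA libraries and at 16.1 FPKM in the control.

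A gene was counted as changed when its ratio was above 1.5-fold with at least 1 FPKM in a library of the comparison and neither side at 0. With si1, 2 of 10 members passed, TFDP1 and E2F7, both lower, where 4.01% of 12921 genes passed in either direction and 3.17% were lower. Since TFDP1 was chosen on this comparison, nothing is read from that count. For the mean of si4 and si5 against the control, 0 of 10 members passed, beside 3.79% of 12993 genes. With si4 alone 0 of 10 passed, beside 6.36% of genes, and with si5 alone 1 of 10 passed, TFDP2, beside 3.54% of genes.

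A comparison of si1 with the mean of si4 and si5 leaves the control out, though the choice of TFDP1 had used the si1, si4 and si5 values, so nothing is read from its count either. There 1 of 10 members, TFDP1, passed, beside 1.31% of 12888 genes in either direction and 0.628% lower. Between si4 and si5, 0 of 10 members passed, beside 2.53% of genes. The median log2 ratio of the members was -0.07 with si1, -0.11 with si4 and 0.02 with si5, beside medians of all genes of -0.01, -0.01 and -0.03. It was -0.10 for the mean of si4 and si5, beside -0.02, and -0.03 for si1 against that mean, beside 0.01. TFDP1, TFDP2 and E2F7 were the only members past the limit in any of these 6 comparisons.

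**Figure D2:**
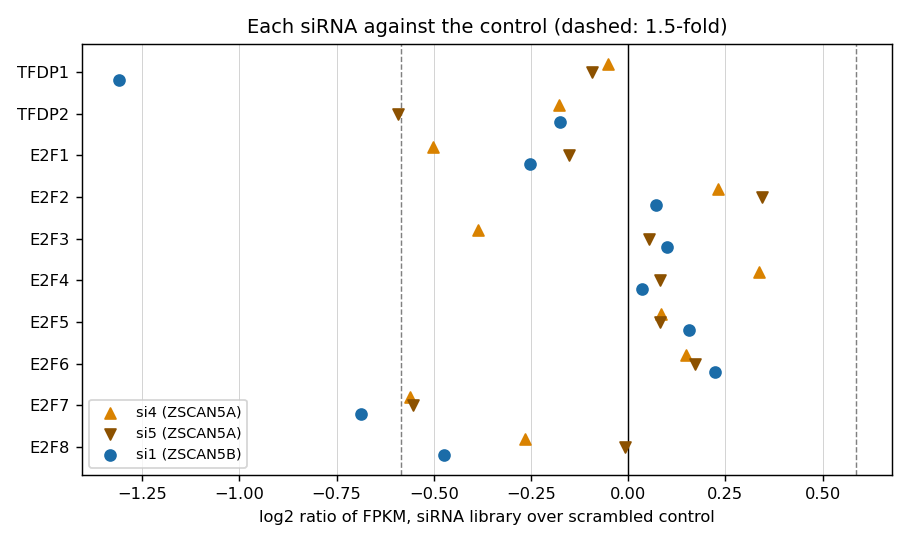
Log2 ratio of FPKM of each siRNA library over the scrambled control for the 10 members, with dashed lines at 1.5-fold. TFDP1 with si1 stands at -1.31, and the 3 points of E2F7 stand together between -0.55 and -0.69.

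TFDP1 encodes DP1, the main partner through which E2F1 to E2F6 bind DNA, and lies at chr13:114239003-114295788 on the plus strand. It was measured at 25.8 FPKM with si1, 61.6 with si4, 59.8 with si5 and 63.8 in the control. The si1 library alone was low, and the other 3 lay within 1.07-fold of each other. With si1 TFDP1 was at 40.4% of the control, 2.48-fold lower, with a log2 ratio of -1.31. The exact Clopper-Pearson 95% interval on estimated fragments was 38.8% to 41.9%, which covers counting error only and not the spread between cultures. The log2 ratios with si4 and si5 were -0.05 and -0.09.

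Against the mean of si4 and si5, the log2 ratio of TFDP1 with si1 was -1.24. Of 12713 genes, 36 (0.283%) were more than 1.5-fold lower with si1 both against the control and against the mean of si4 and si5, while within 1.5-fold of the control with si4 and with si5. TFDP1 ranked 3 from the lowest si1 ratio among these 36, and 2 among the 25 that reached 5 FPKM. This filter follows the pattern on which TFDP1 was chosen, so its place among these genes is a description. The expressed genes beside TFDP1 had smaller ratios, none past the limit. Within 200000 bases, DCUN1D2, which encodes a neddylation factor, had a log2 ratio of -0.19 with si1, TMCO3 had -0.03 and ADPRHL1, at about 1 FPKM, had -0.39. No other row of the table overlapped TFDP1. Processed pseudogenes TFDP1P1, TFDP1P2 and TFDP1P3 are annotated elsewhere in the genome, and how reads shared with them were counted is not given in the sources used here.

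TFDP2 encodes DP2, the second DP partner, and lies at chr3:141663270-141868386 on the minus strand. Its levels were 5.85 FPKM with si1, 5.85 with si4, 4.39 with si5 and 6.61 in the control. The si5 library was the lowest, at 66.4% of the control with a counting interval of 63.3% to 69.6%. This is 1.51-fold, just past the limit, with a log2 ratio of -0.59, against -0.18 with si4 and -0.17 with si1. The call was lost when libraries were scaled by median ratio (-0.56) or upper quartile (-0.55), and with the correction for length and GC content (-0.35). The 3 si5 seed matches are in its 3′ UTR of 8085 bases.

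Summed over both genes, DP transcripts were 31.6 FPKM with si1, 67.5 with si4, 64.2 with si5 and 70.4 in the control. TFDP1 made up 81.5%, 91.3%, 93.2% and 90.6% of these sums. TFDP2 was not higher with si1 than in the control, and the DP sum with si1 was 44.9% of the control. E2F1 to E2F6, the E2F genes whose products pair with DP, summed to 118.8, 113.1, 120.7 and 117.3 FPKM in the same order. DP transcripts per E2F1 to E2F6 transcript were therefore 0.266 with si1, 0.596 with si4, 0.532 with si5 and 0.601 in the control. The E2F sum with si1 was within the range of the other libraries. TFDP1, which was chosen for being low with si1 only, made up most of every DP sum. The low DP sum and the low ratio with si1 therefore restate that choice, and nothing more is read from them. These are transcript levels, and protein was not measured in these files.

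**Figure D3:**
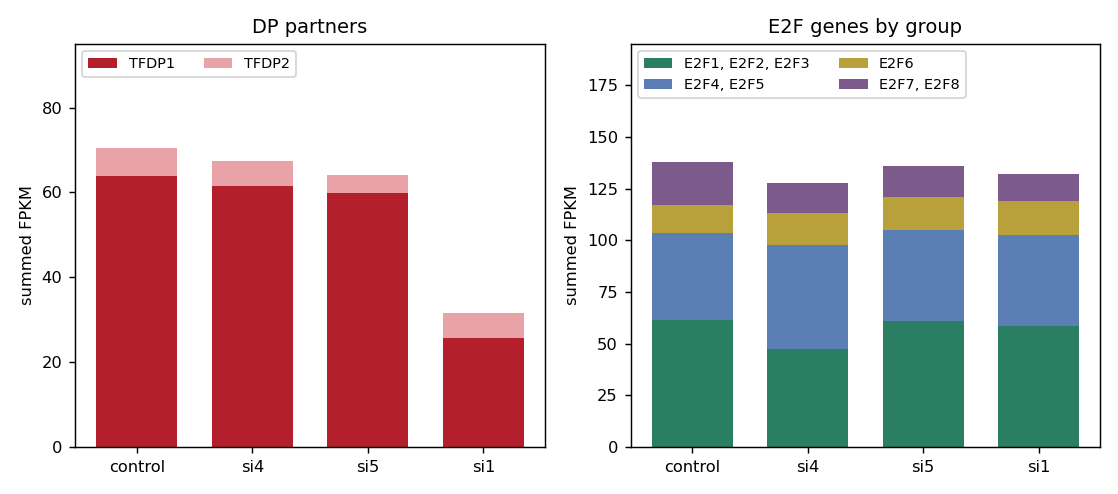
Summed FPKM of the DP genes and of the E2F genes by group, as stacked bars from 0, 1 bar per library. The DP bar with si1 reaches 31.6 FPKM against 64.2 to 70.4 FPKM in the others, while the E2F bars lie between 127.8 and 137.9 FPKM. TFDP1, which was chosen on its si1 value, makes up most of each DP bar.

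Among the activators, E2F1, at chr20:32263292-32274210, was at 26.3 FPKM with si1, 22.1 with si4, 28.2 with si5 and 31.3 in the control. All 3 siRNA libraries were below the control, with log2 ratios of -0.25, -0.50 and -0.15, and none passed the limit. E2F2, at chr1:23832920-23857712, was at 5.60, 6.25, 6.77 and 5.33 FPKM in the same order. It was above the control in all 3, by log2 ratios of 0.07, 0.23 and 0.35, and the counting interval with si1 held equality. E2F3, at chr6:20402137-20493945, was at 26.7 FPKM with si1, 19.0 with si4, 25.8 with si5 and 24.9 in the control. The si4 library stood alone below the others, with a log2 ratio of -0.39 against 0.10 with si1 and 0.05 with si5, and the only si4 seed match among the members is in E2F3. The 3 activators summed to 58.6, 47.4, 60.8 and 61.5 FPKM, so the si4 library was the low one.

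Of the E2F genes that act with pocket proteins, E2F4, at chr16:67226068-67232821, was at 30.0 FPKM with si1, 36.9 with si4, 30.9 with si5 and 29.2 in the control. Its log2 ratios were 0.04, 0.34 and 0.08, and the si4 library was the high one. E2F5, at chr8:86089619-86126753, where its locus overlaps that of C8orf59, was at 14.2, 13.5, 13.5 and 12.7 FPKM. It varied least of all members, by 1.11-fold from lowest to highest. E2F4 and E2F5 together were 44.1, 50.4, 44.4 and 41.9 FPKM. Activator transcripts per E2F4 and E2F5 transcript were 1.33 with si1, 0.940 with si4, 1.37 with si5 and 1.47 in the control, which puts si4 apart from the other ZSCAN5A siRNA.

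E2F6, the repressor that works without pocket proteins, lies at chr2:11584501-11606297. Its levels were 16.1 FPKM with si1, 15.3 with si4, 15.6 with si5 and 13.8 in the control. It was above the control in all 3 siRNA libraries, with log2 ratios of 0.22, 0.15 and 0.17, none past the limit. Processed pseudogenes of E2F3, E2F4 and E2F6 are annotated and are not rows of the table, so the values of these genes carry the same doubt about shared reads as TFDP1.

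E2F7, an atypical repressor, lies at chr12:77415026-77459360 on the minus strand. It was at 10.0 FPKM with si1, 10.9 with si4, 11.0 with si5 and 16.1 in the control. The 3 siRNA libraries lay within 1.10-fold of each other and all below the control, which was the library that stood apart. The log2 ratios were -0.69, -0.56 and -0.55, so only si1 was past the limit, at 62.2% of the control with a counting interval of 59.4% to 65.0%. With si4 and si5, at 1.47-fold each, E2F7 was just short of it, and against the mean of si4 and si5 the log2 ratio with si1 was -0.13. Because 1 control library serves all 3 ratios, a difference of that library and a response to the siRNAs cannot be told apart.

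E2F8, the other atypical member, lies at chr11:19245610-19263202 and was the least abundant in 3 of the libraries. It was at 3.22 FPKM with si1, 3.72 with si4, 4.44 with si5 and 4.47 in the control. The si1 library was the lowest, with a log2 ratio of -0.47, against -0.27 with si4 and -0.01 with si5. E2F7 and E2F8 together made up 10.0% of E2F transcripts with si1, 11.5% with si4, 11.3% with si5 and 14.9% in the control. Estimated fragments behind a member's value ran from 647, for E2F8 with si1, to 13012, for TFDP1 with si5.

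Across the family, 5 members (TFDP1, TFDP2, E2F1, E2F7 and E2F8) were below the control in all 3 siRNA libraries and 4 (E2F2, E2F4, E2F5 and E2F6) were above it in all 3. E2F3 was mixed. Over 12983 genes, 36.2% were lower in all 3 and 30.1% higher in all 3, and since the 3 ratios share the control library this count is a description. The 2 DP genes, the S phase activator E2F1 and both atypical genes are thus on one side, and E2F2 and the genes for the repressors that need DP are on the other. Several of these signs rest on small differences. The counting interval held equality for E2F8 with si5, for E2F2 and E2F4 with si1, and for E2F5 with si4 and with si5, and a correction for length and GC content moved TFDP2 above the control with si1 (0.06) and with si4 (0.06).

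**Figure D4:**
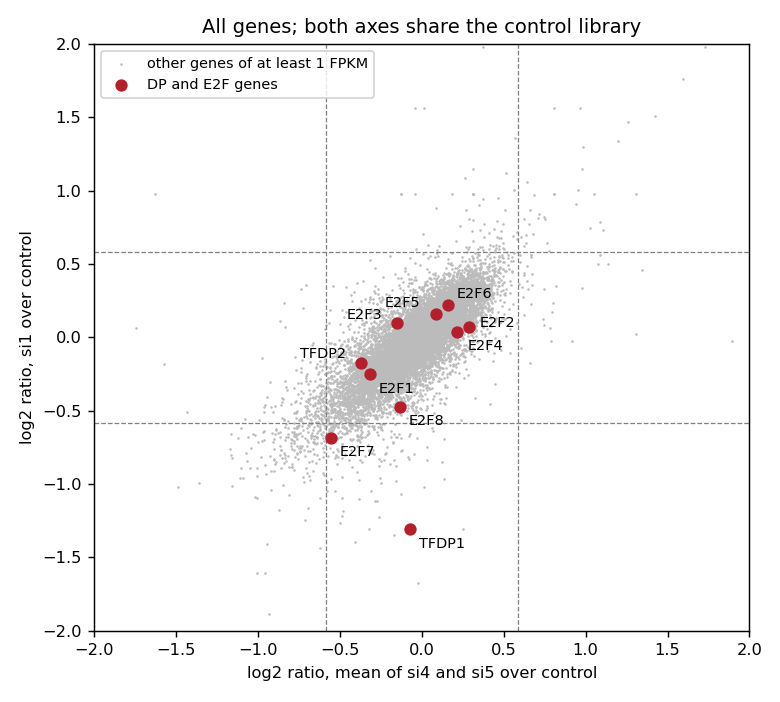
Log2 ratio with si1 against log2 ratio with the mean of si4 and si5, for genes of at least 1 FPKM (grey) and the 10 members (red), with dashed lines at 1.5-fold and 9 of 12890 genes beyond the axes. Both axes use the same control library, so the slope of the cloud is no result. TFDP1 lies far below the cloud at -0.07 and -1.31, and E2F7 lies near its lower left at -0.56 and -0.69.

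The genes whose 3 ratios were most like those of TFDP1 were found by Euclidean distance over the log2 ratios with si4, si5 and si1, among 9427 genes that reached 5 FPKM. They were CBFB, at a distance of 0.269, SNORD17 at 0.328, SUMF1 at 0.329, FBXW2 at 0.357 and EPB41L4B at 0.377. CBFB, the shared subunit of the core binding factors, was at 19.0 FPKM with si1, 38.4 with si4, 34.3 with si5 and 39.7 in the control. CBFB held 1 si1 seed match and FBXW2, an F-box protein gene, held 5, while SUMF1 and EPB41L4B held none. For E2F7 the nearest genes were much closer, with IGF1R, the receptor for insulin-like growth factor, at 0.0594, HOXA4 at 0.0687, MLL at 0.0743, FOXK1 at 0.0787 and MAP1B at 0.0848. IGF1R was at 6.48, 6.87, 6.72 and 10.1 FPKM, with the control alone high as for E2F7.

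The genes around the family were then described by lists. Counts past the limit stand beside shares over all genes of 3.17% lower with si1 and 3.79% in either direction with the mean of si4 and si5. In each list, the genes named are the pair with the lowest and the pair with the highest si1 ratios that reached 5 FPKM, and others named were chosen after their values were seen. The 11 genes of pocket proteins, the MuvB core and its MYB and FOXM1 partners had 0 members past the limit with si1 and 0 with the mean of si4 and si5, with medians of -0.16 and -0.11. FOXM1, an activator of mitotic genes, had the lowest si1 ratio at 22.5 FPKM with si1, 20.4 with si4, 22.1 with si5 and 31.1 in the control, and with si4 it passed the limit. LIN37 had a log2 ratio of -0.24 with si1, while LIN9 (0.16) and LIN52 (0.10) were highest. RB1 itself, chosen after its values were seen, was at 19.8, 16.4, 20.8 and 22.3 FPKM.

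Of 16 G1 cyclins, kinases and inhibitors, 2 were lower with si1, CDK6 and CDKN1C, and 2 with the mean of si4 and si5, CCND1 and CDK6. The list medians were -0.17 and -0.05. CDK6, a kinase that phosphorylates RB1, was at 7.76 FPKM with si1, 10.6 with si4, 6.26 with si5 and 14.5 in the control, and its 3′ UTR held 3 si1 and 2 si5 seed matches. CCND1, the cyclin D1 gene, was at 22.4 FPKM with si1, 7.09 with si4, 18.0 with si5 and 24.7 in the control, so the fall rested on si4, and it held no seed match for any of the 3 guides. CDKN1C, an inhibitor of the kinases, went from 2.33 FPKM in the control to 1.55 with si1. CCNE2 had a log2 ratio of -0.48 with si1 without passing, and CDK4 (0.21) and CCND3 (0.18) were highest.

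Of 40 E2F target genes of S phase, 1 was lower with si1 and 0 with the mean of si4 and si5, with medians of -0.05 and 0.06. That gene was RRM2, the small subunit of ribonucleotide reductase, at 46.5 FPKM with si1, 54.1 with si4, 79.7 with si5 and 87.9 in the control. It was low in the si4 library as well, where it also passed the limit, and it held 1 si1 seed match. UHRF1, which recruits the maintenance DNA methyltransferase, had a log2 ratio of -0.52 with si1, and BRCA1 (0.20) and POLA1 (0.17) were highest. With si1 25 of the 40 were below the control and 15 above it. Against the mean of si4 and si5, 33 of the 40 were lower with si1 and 7 higher, with a median of -0.11 and 0 past the limit, where 46.2% of all genes were lower and their median was 0.01. In the same comparison 17 of 20 G2 and M genes and 13 of 16 G1 genes were lower, with medians of -0.08 and -0.12, so this was not particular to the S phase list. CCNE1 (-0.04) and CCNE2 (-0.47) are in both the G1 and the S phase list, so the counts of those lists are not separate. The other lists were split, with 4 of 11 lower for pocket proteins and MuvB, 6 of 12 for E2F6 partners and 4 of 8 for apoptosis genes. Against the control, the G2 and M genes were split with si1, 10 lower and 10 higher, with a median of -0.01. For the mean of si4 and si5 against the control, 12 of these 20 were higher, with a median of 0.08. Of the 16 G1 genes, 14 were below the control with si1 and 10 with that mean. The summed level of 3 markers of dividing cells, MKI67, PCNA and TOP2A, was lowest with si1. It was 505.9 FPKM with si1, 542.2 with si4, 574.6 with si5 and 544.4 in the control. MKI67 and PCNA were each lowest with si1, but TOP2A was not, at 168.3 FPKM with si1 and 164.5 in the control. PCNA is also in the S phase list and TOP2A in the G2 and M list, so they are not separate from those lists. The part of the share of dividing cells in these values was not tested, and in bulk RNA fewer dividing cells and less RNA per cell cannot be told apart.

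Of 20 G2 and M genes that E2F4 represses with the pocket proteins, 0 passed with si1 and 0 with the mean of si4 and si5, and the medians were -0.01 and 0.08. CCNF, a cyclin of an F-box ubiquitin ligase, was at 7.17, 7.97, 7.01 and 10.3 FPKM, with a log2 ratio of -0.52 with si1, and PLK1, a mitotic kinase, had -0.35. CCNB1 (0.22) and TTK (0.16) were highest. CENPE, a kinetochore motor, was past the limit with si5 only, where it was higher, at 5.95 FPKM with si1, 8.89 with si4, 9.78 with si5 and 6.41 in the control. Of the 12 partners of E2F6, 0 passed in either comparison, with medians of -0.06 and -0.03. Among them, CBX3, a chromatin protein of the HP1 family, was highest with si1 at a log2 ratio of 0.32, then YAF2 at 0.18, and RYBP (-0.28) and EHMT2 (-0.18) were lowest.

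Germ line genes that E2F6 keeps silent stayed below 1 FPKM in all 4 libraries, 10 of 10, so 0 could be compared. The highest were SYCP3, at 0.464 FPKM with si1 and 0.678 in the control, and STAG3, at 0.366 and 0.522 FPKM. Of 8 apoptosis genes that E2F can induce, 2 were lower with si1, BCL2L11 and TP73, and 1 with the mean of si4 and si5, BCL2L11, with medians of -0.10 and -0.03. BCL2L11, which encodes the death promoter BIM, was at 10.7 FPKM with si1, 11.2 with si4, 9.99 with si5 and 20.1 in the control, so the control again stood apart from all 3 siRNA libraries. TP73, a p53 relative, was at 2.40, 2.49, 2.72 and 3.79 FPKM. PMAIP1, which encodes the death promoter NOXA, was highest with si1 at a log2 ratio of 0.24. Across the lists, 5 of 105 distinct genes tested (4.76%) were past the limit with si1, all lower. Over all genes, 4.01% passed in either direction and 3.17% were lower.

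**Figure D5:**
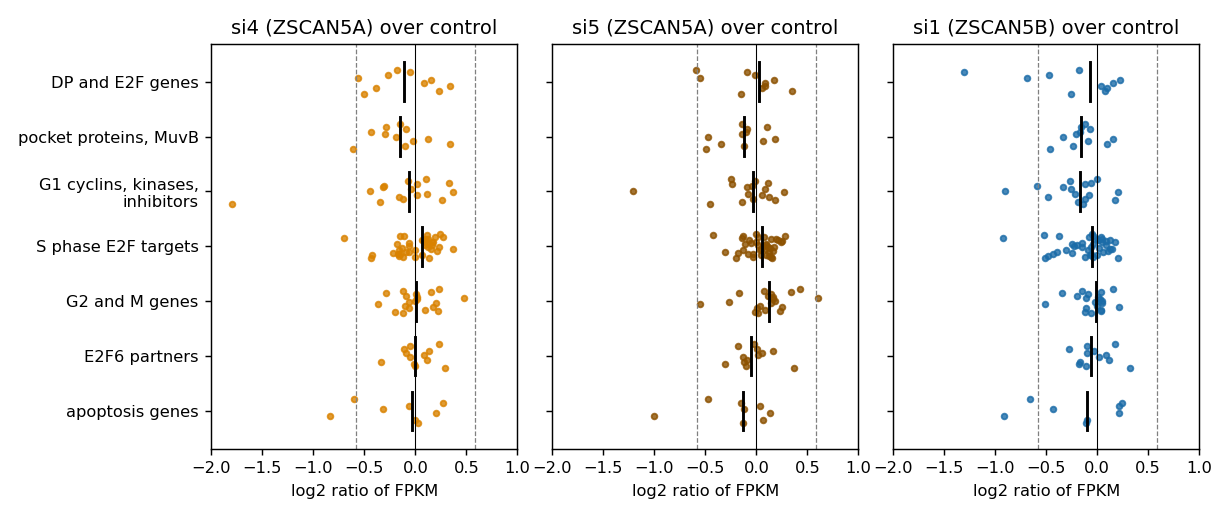
Log2 ratio of FPKM over the control for each gene of the family and of the lists around it, 1 panel per siRNA, with a black bar at the list median and dashed lines at 1.5-fold. The medians with si1 lie between -0.17 and -0.01, and the germ line list is left out because none of its genes reached 1 FPKM.

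E2F genes can themselves be targets of E2F, so the promoters were read. The 300 bases from 250 before to 50 after each deposited start were searched on both strands for TTTCCCGC, TTTCGCGC, TTTGCCGC and TTTGGCGC. A match was present in 4 of 10 members (E2F1, E2F2, E2F3 and TFDP1), in 16 of 40 S phase targets, and in 3.84% of 21320 promoters of all genes or 5.17% of the 12497 with at least 1 FPKM. No match was found for the E2F6 partners, the germ line genes or the apoptosis genes, which says only that these letters are not in these windows. The other lists had matches in 3 of 11 (pocket proteins and MuvB), 2 of 16 (G1) and 3 of 20 (G2 and M). Shown are the promoters of the members past the limit with si1, TFDP1 and E2F7, and of E2F1, the only member with 2 matches, from GRCh37 with the matches in capitals.
TFDP1, chr13:114238753-114239052, plus strand: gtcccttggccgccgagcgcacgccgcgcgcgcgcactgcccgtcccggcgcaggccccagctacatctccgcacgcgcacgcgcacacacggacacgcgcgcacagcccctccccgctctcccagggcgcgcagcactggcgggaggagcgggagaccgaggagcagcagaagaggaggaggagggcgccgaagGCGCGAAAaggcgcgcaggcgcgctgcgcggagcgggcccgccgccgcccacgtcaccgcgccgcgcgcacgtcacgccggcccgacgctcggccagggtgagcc
E2F1, chr20:32274161-32274460, minus strand: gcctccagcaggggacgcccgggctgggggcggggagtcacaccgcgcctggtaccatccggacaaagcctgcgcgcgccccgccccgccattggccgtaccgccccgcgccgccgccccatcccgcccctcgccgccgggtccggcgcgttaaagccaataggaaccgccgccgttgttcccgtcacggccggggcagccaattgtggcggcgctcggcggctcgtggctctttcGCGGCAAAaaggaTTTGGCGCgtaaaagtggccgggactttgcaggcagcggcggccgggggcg
E2F7, chr12:77459311-77459610, minus strand: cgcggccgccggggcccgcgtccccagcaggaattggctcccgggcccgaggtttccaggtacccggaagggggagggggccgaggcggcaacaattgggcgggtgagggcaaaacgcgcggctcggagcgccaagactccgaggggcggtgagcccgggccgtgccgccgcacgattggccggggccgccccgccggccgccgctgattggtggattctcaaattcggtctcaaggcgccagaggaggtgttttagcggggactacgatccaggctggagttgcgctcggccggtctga
TFDP1 held 1 match on the opposite strand, starting 55 bases before the start, E2F1 held 1 on each strand, 14 and 1 bases before it, and E2F7 held none of these motifs. E2F1 and TFDP1, which both hold a match, had log2 ratios with si1 of -0.25 and -1.31, and E2F2 and E2F3 had 0.07 and 0.10. TFDP1 was chosen on its si1 value, and the counting interval of E2F2 with si1 held equality. The part of these motifs in any value given here was not tested.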

How the data were processed

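RNA-seq libraries of HEK-293 cells, 1 for the scrambled control and 1 each for the siRNAs si1, si4 and si5, were taken by their labels. The authors aligned the reads to hg19 and deposited FPKM values for each gene row. The submitters' processing notes name CASAVA 1.8.2, Trimmomatic 0.30, TopHat2 2.1.0 and Cufflinks 2.2.1. Labels and methods name different library kits. How multi-mapped reads were divided, and the annotation version, are not given in the sources used here. FPKM was used as deposited, without a pseudocount or rescaling, and 0 further per-sample columns were found in the table. Of 24934 rows, 5031 were at 0 in every library and 543 symbols stood on more than 1 row, for which lists used the row with the highest mean. FPKM scales each library to its own total, so a ratio is relative to all other transcripts.

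The fold limit was 1.5 with at least 1 FPKM in a library of the comparison, as in the study's rule for ZSCAN5B, and genes at 0 on one side (between 41 and 63 rows) were left out. The study's adjusted p-value for ZSCAN5A was not used, because si4 and si5 are different siRNAs. The 10 members are named in full, in each list the 2 genes with the lowest and the 2 with the highest si1 ratios that reached 5 FPKM, and the 5 genes most like each member past the limit with si1. The latter were TFDP1 and E2F7. Members and lists were chosen with earlier results of these data known.

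Relative depth came from 1745 genes under 0.1 FPKM, whose ratios to the control fell on small whole-number ratios, with a tolerance of 0.05%, in 45.8% to 51.9% of genes at the chosen depth. Fragments were estimated from this and from transcript length in 973 genes. Intervals are exact Clopper-Pearson, 95%, and cover counting error only. siRNA target sequences came from the study's supplement. Transcripts came from GENCODE lifted to GRCh37, the build of the table, and 12359 of 12926 symbols (95.6%) matched. Alternatives were another fold limit, expression limit, pseudocount, scaling between libraries, summing rows of a symbol, each ZSCAN5A siRNA alone and limma on log2(FPKM + 1) and, after seeing the data, a further correction of ratios for GC content and transcript length. The fold rule and limma were tested on simulated data with known changes. Python 3.11.15, NumPy 2.4.6, pandas 2.3.3, SciPy 1.17.1, matplotlib 3.10.9, R 4.3.3 and limma 3.58.1 were used. ZSCAN5C, ZSCAN5D, ChIP-seq and qRT-PCR were not analysed here, and some genes and 1 sequence that the rules would name are not reported here.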

Additional observations from a re-analysis of the deposited data

How the results depend on the processing

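With 1 library per treatment, nothing here separates a treatment from the library that stands for it, and genes under 1 FPKM, ZSCAN5B among them, were too low to compare. No paired analysis was possible because each treatment had 1 library. The log2 ratio of TFDP1 with si1 was between -1.32 and -1.28 and that of E2F7 between -0.69 and -0.64 over all alternatives run. TFDP2 with si1 turned from -0.17 to 0.06 with the correction for transcript length and GC content, without passing the limit. The call of TFDP2 with si5 alone was lost, so that the count of members with si5 went from 1 to 0, under median-ratio scaling, upper-quartile scaling and the length and GC correction, which were added for the single siRNAs after seeing the data. E2F3 turned from -0.15 for the mean of si4 and si5 to 0.05 with si5 alone.

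With si1, 2 members passed at 1.5-fold and 1, TFDP1, at 2-fold. Over all genes the si1 count of 518 became 67 at 2-fold, 2522 when a ratio 25% above 1, or its inverse, was enough (the looser limit), 2364 without an expression limit, 252 with a limit of 5 FPKM, 210 with a pseudocount of 1 and 325 with the length and GC correction. For the mean of si4 and si5, the count of members went from 0 to 2 at the looser limit, E2F7 and TFDP2, and to 1 with si5 alone, TFDP2, where the median of the members was 0.022 in place of -0.10. The count over all genes went from 492 to 73 at 2-fold, 2404 at the looser limit, 2512 without an expression limit, 205 at 5 FPKM, 199 with a pseudocount of 1, 822 with si4 alone and 278 with the length and GC correction. limma, which takes si4 and si5 as 1 group against the single control, called 10 genes at an adjusted p below 0.05 and 1654 at an unadjusted p below 0.05. For E2F7 the limma log2 difference was -0.52. The control had 1 library, so the only spread in this fit was that between si4 and si5, which are different siRNAs. That spread holds no variation between control cultures, so nothing is read from these limma counts. The share of changed genes that were lower was 79.0% with si1 and 62.7% at 2-fold, 65.7% at the looser limit and 62.4% without an expression limit. For the mean of si4 and si5 it was 82.1%, and 68.5%, 72.2% and 69.6% in the same settings. The G1 list with si1 went from 2 to 1 under median-ratio and upper-quartile scaling, each of which dropped CDKN1C. The other causes were not tested.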
